A study of Mus musculus with 4 samples.

Results

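GABAergic neurons of the mouse bed nucleus of the stria terminalis (BNST) in which Cartpt transcripts were captured were compared with GABAergic neurons of the same libraries in which none was captured. Of 10200 cell barcodes in 4 libraries, 4239 passed a filter of 400 or more detected genes and of no more than 10% mitochondrial transcripts, counted as unique molecular identifiers (UMIs, each standing for 1 captured transcript). Of these, 2283 passed as GABAergic neurons: the neuronal genes Snap25, Syt1, Stmn2, Snhg11 and Meg3 together made up at least 0.6% of their UMIs, and Gad1, Gad2 and Slc32a1 together gave at least 1 UMI. The groups were chosen by the Cartpt UMI count: at least 1 was found in 493 of them, 183, 102, 94 and 114 in libraries 1 to 4, and these are the Cartpt-positive neurons. Each was matched within its library, on total UMIs, to 1 of the 1790 barcodes with no Cartpt UMI.

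The study, whose title concerns prepronociceptin neurons of the extended amygdala, profiled BNST tissue punches by Drop-seq, in which single cells are caught in droplets with barcoded beads that tag the 3' ends of their transcripts. All animals were male wildtype C57BL/6J mice on standard chow, and each library pooled 6 of them, 24 in all. No treatment or age is given in the labels used here. Both groups come from the same animals, so the contrast is between cells with and without a captured Cartpt transcript and not between conditions. The p-values of the gene tests below rest on 4 pools, not on single mice. Their spread is estimated partly over all genes, so it can be smaller than a gene's own spread between pools. The standard error (SE) given beside a log2 fold change is worked back from the same test and shares this limit.

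Cartpt encodes the precursor of the cocaine- and amphetamine-regulated transcript (CART) peptides, which are stored in dense-core vesicles and released with other transmitters. CART peptides are known for their part in feeding, reward and stress responses. Most BNST neurons release GABA, and subsets of them are conventionally told apart by the neuropeptides they make alongside it.

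Cartpt lies on the minus strand at chr13:99898489-99901091 in the GENCODE vM21 annotation of GRCm38. The sequences below are shown because the promoters of Cartpt and of Sst, a second peptide gene, carry the same 8 letters, the full cAMP response element TGACGTCA, given in capitals. Both are 30-base stretches of the minus strand from the RefSeq promoter table of GRCm38.p6, with the element at position -112 from the RefSeq start of Cartpt and at position -48 from that of Sst. In GENCODE both stretches fall in the 5' untranslated region of a longer transcript model.
Cartpt, chr13:99900777-99900806: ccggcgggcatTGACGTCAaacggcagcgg
Sst, chr16:23890874-23890903: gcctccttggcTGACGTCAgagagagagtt
The element is its own reverse complement, so both strands were searched at once. It occurs in 588 of the 32851 promoter windows of 300 bases in that table (1.79%). Of 19 other neuropeptide precursor genes with a promoter there, 1, Sst, holds it. Pnoc, Penk, Crh and Grp have no promoter there and were not searched. A match describes the letters of the window and shows no binding.

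Cartpt itself defined the groups, so its level is a description without a test. The 493 positive neurons held 4571 Cartpt UMIs, 2194, 927, 753 and 697 in libraries 1 to 4. That made 1991, 1993, 1628 and 1735 Cartpt UMIs per 1000000 UMIs (CPM) in the summed positive cells, a mean of 1837 ± 185 (SD, n = 4). The UMIs were spread unevenly over cells. Exactly 1 was found in 153 cells (31.0%), which held 3.35% of all Cartpt UMIs in the group. At the other end, 106 cells (21.5%) had 10 or more UMIs and held 74.7% of the total, and 16 cells with at least 50 held 32.4%. The highest cell had 190.

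**Figure D1:**
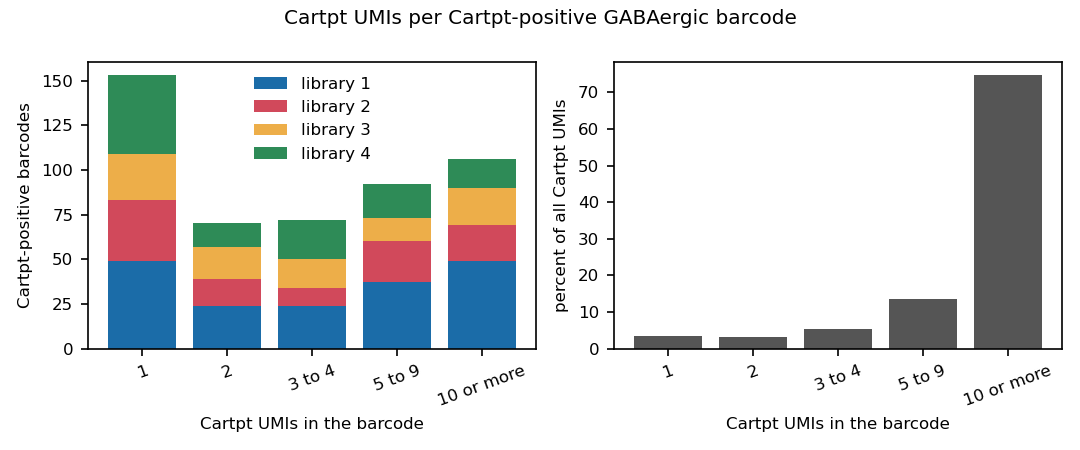
The left panel plots the number of Cartpt-positive barcodes by their Cartpt UMIs, with the 4 libraries stacked, and the right panel the percent of all Cartpt UMIs in each class. The 153 barcodes with 1 UMI are the most frequent class shown, and the 106 with 10 or more carry 74.7% of the UMIs.

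Capture of Cartpt depended on depth, so the negative cells may include neurons whose Cartpt transcripts were missed. Brought to 1000 UMIs per cell, which left out 273 shallower cells, 16.1%, 14.2%, 15.3% and 10.8% of GABAergic neurons in libraries 1 to 4 had a Cartpt UMI, a mean of 14.1% ± 2.34 (SD, n = 4). Without this thinning the share was 21.8% ± 3.80 at a median of 3362 UMIs per cell. Oligodendrocyte barcodes, which should lack Cartpt, showed 1.3% ± 1.08 at 1000 UMIs and 1.5% ± 0.527 unthinned at a median of 1391 UMIs, so the GABAergic share lay above this background in each library. The oligodendrocyte barcodes held 14 Cartpt UMIs in 933 barcodes. How many of the single-UMI neurons are background was not tested. Just under the neuronal limit, between 0.5% and 0.6%, 17 of 55 barcodes had a Cartpt UMI, and just over it, up to 0.7%, 12 of 63 did.

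The groups were well matched in depth. The positive cells held 2431079 UMIs in all and the matched negative cells 2421254, with medians of 4379 and 4370 UMIs and of 2351 and 2369 detected genes per cell. The median mitochondrial share of UMIs was 3.92% in positive and 3.61% in negative cells, higher in 4 of 4 libraries (two-sided exact permutation over sign flips, p = 0.13, the smallest possible with 4 pairs). Microglial marker genes summed to 2.16 to 20.0 CPM in positive and 19.4 to 32.4 CPM in negative cells, lower in 4 of 4 libraries (exact p = 0.13), with 4 of 12 markers, C1qc, P2ry12, Mrc1 and Pf4, at 0. The 12 oligodendrocyte markers spanned 295 to 1088 CPM in positive and 172 to 1453 CPM in negative cells, higher in 2 of 4 libraries, and the 12 astrocyte markers 221 to 365 and 344 to 473 CPM, higher in 1 of 4. Their part in the results below was not tested. No gated barcode sequence occurred in more than 1 library.

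Raw UMIs were summed per library and group and compared with edgeR's quasi-likelihood test, paired by library, with Benjamini-Hochberg adjustment over all 7134 genes tested. Cartpt, the 8 genes of the gate and the mitochondrial genes were left out. At an adjusted p under 0.05, 222 genes differed (3.11% of those tested), 121 higher (1.7%) and 101 lower (1.42%) in Cartpt-positive neurons. In 95 of the 222 the 4 positive values did not overlap the 4 negative ones, against 3.07% of all genes tested, and 50 differed by at least 1 on the log2 scale. The count rests on the method: DESeq2's Wald test called 30 genes, all among the 222, and edgeR without the pairing by library called 14, also all among them. With cells limited to 5% mitochondrial UMIs, 60 genes were called, 54 of them among the 222. Of the neuropeptide genes, Cck, Tac1, Avp, Gal and Pnoc were higher, and Npy, Sst, Crh and Tac2 were lower. Avp and Cck had the largest rises and Npy and Sst the largest falls among called genes with 1 direction in all 4 libraries. Avp, Gal, Sst and Tac2 were not past the threshold in DESeq2's Wald test.

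**Figure D2:**
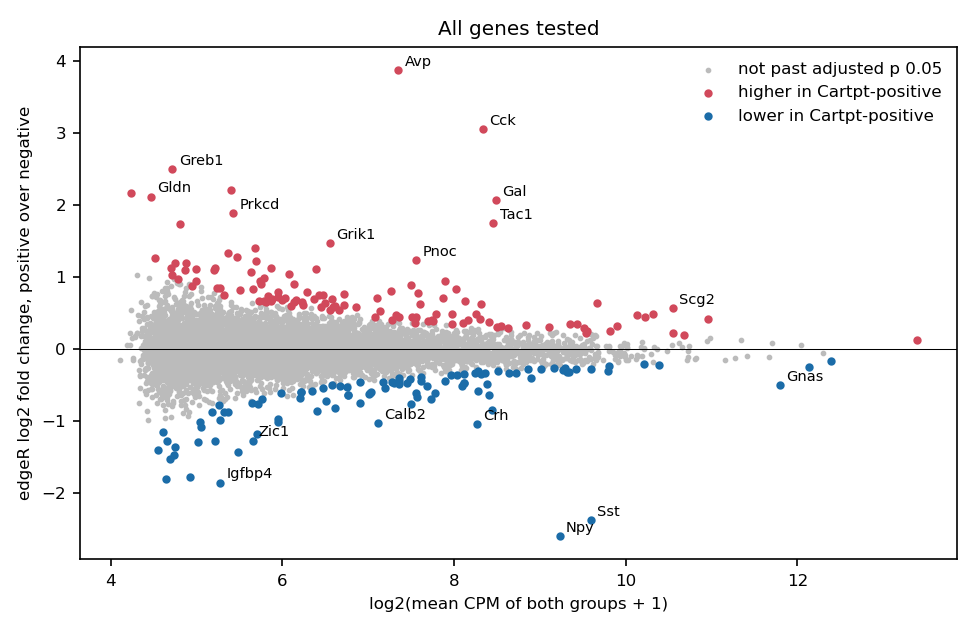
Each point is 1 of the 7134 genes tested, with its mean level in both groups on the x axis (log2 of CPM plus 1) and its edgeR log2 fold change, positive over negative, on the y axis. Coloured points are the 121 genes higher and 101 genes lower in Cartpt-positive neurons, with peptide genes among those farthest from 0.

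Of 23 neuropeptide precursor genes other than Cartpt, 13 had enough counts to test, and 9 of these differed, 5 higher and 4 lower, with a median log2 fold change of 0.08 beside -0.00 over all genes tested. That is 69.2% called, beside 3.11% of all genes tested. Cck (chr9:121489824-121495694), the precursor of cholecystokinin, stood at 451, 387, 915 and 583 CPM in the positive cells of libraries 1 to 4 and at 91.6, 32.3, 43.2 and 74.7 CPM in the negative cells. Every positive value lay above every negative one, and the log2 fold change was 3.06 (SE 0.15, edgeR quasi-likelihood adjusted p = 4.28e-22). Without library 1 it was 3.67. A Cck UMI was seen in 20.5% ± 5.0 of positive and 8.17% ± 1.51 of negative cells (SD, n = 4), and in none of the 933 oligodendrocyte barcodes, which allows up to 0.322%.

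Tac1 (chr6:7554879-7565834), which encodes substance P and neurokinin A, was at 606, 499, 599 and 438 CPM in positive and 144, 207, 203 and 109.5 CPM in negative cells. The groups did not overlap, and the log2 fold change was 1.75 (SE 0.10, edgeR adjusted p = 8.12e-19). The share of cells with a Tac1 UMI was 26.1% ± 6.16 against 12.7% ± 4.12 (SD, n = 4), with 1.98% in oligodendrocyte barcodes.

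Pnoc (chr14:65400673-65425472), the precursor of nociceptin and the gene the study is named for, was at 255, 258, 277 and 279 CPM in positive cells and at 139, 114, 56.1 and 122 CPM in negative cells. All 4 positive values lay above the negative ones and close to each other, with means of 267 ± 12.4 and 108 ± 36.1 CPM (SD, n = 4). The log2 fold change was 1.24 (SE 0.13, edgeR adjusted p = 5.71e-10). Pnoc UMIs were found in 30.6% ± 4.12 of positive and 20.3% ± 5.50 of negative cells, against 0.105% of oligodendrocyte barcodes. Oprl1, the nociceptin receptor, was at 63.0 ± 14.3 and 64.4 ± 14.1 CPM, a log2 difference of -0.01 with a 95% confidence interval from -0.37 to 0.34 (edgeR adjusted p = 0.985).

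Avp and Gal were also higher, but in few cells. Avp, the vasopressin precursor, gave 353, 340, 90 and 1 UMIs in the positive cells of libraries 1 to 4 and 55, 0, 0 and 0 in the negative cells. The 784 positive UMIs came from 11 cells, 1 of which held 31.0%, and the 55 negative UMIs from 2 cells. The edgeR log2 fold change of Avp was 3.87 (SE 0.26, adjusted p = 2.24e-16), or 3.06 without library 2, and was not past the threshold with DESeq2's Wald test. Its single-library log2 differences, with 1 CPM added, had an SD of 3.76 over the 4 libraries. Gal, the galanin precursor, was at 518, 1612, 216 and 74.7 CPM in positive and 229, 0, 25.9 and 179 CPM in negative cells, higher in 3 of 4 libraries with overlapping groups. Its log2 fold change was 2.08 (SE 0.34, edgeR adjusted p = 2.80e-05), 0.99 without library 2 and 2.97 without library 1. The same SD over libraries was 5.14 for Gal. Gal UMIs were found in 49 positive and 17 negative cells.

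On the lower side, Npy (chr6:49822710-49829507), the precursor of neuropeptide Y, was at 301, 116, 147 and 54.8 CPM in positive cells and at 1427, 549, 477 and 1723 CPM in negative cells. No positive value reached the lowest negative one, and the log2 fold change was -2.59 (SE 0.16, edgeR adjusted p = 1.12e-17). The single-library log2 differences of Npy had an SD of 1.47. The number of cells with at least 1 Npy UMI was nearly the same, 48 positive and 53 negative (8.88% ± 3.56 and 10.6% ± 1.93, SD, n = 4, with 0.766% in oligodendrocyte barcodes). They held 476 and 2726 Npy UMIs, and in each group 1 cell held 28.2% of them. These counts do not compare neurons of 1 kind: cluster 6, led by Npy and Sst and described below, held 9 positive and 46 negative cells. With negatives matched on detected genes in place of UMIs, the Npy log2 fold change was -0.72 and its call ended (edgeR adjusted p = 0.573).

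Sst (chr16:23889573-23890958), the somatostatin precursor, was at 557, 103, 15.1 and 214 CPM in positive and 1024, 551, 773 and 2957 CPM in negative cells. It was lower in each library, although the positive value of library 1 overlapped the negative range. Its log2 fold change was -2.38 (SE 0.22, edgeR adjusted p = 1.47e-11), and -3.63 without library 1. The single-library log2 differences of Sst had an SD of 2.00. As for Npy, the cells with an Sst UMI were similar in number, 62 and 72, and 1 positive cell held 31.3% of the positive UMIs. Crh, the precursor of corticotropin-releasing hormone, was at 134, 150.5, 289.7 and 194 CPM in positive and 187, 549, 604 and 356 CPM in negative cells, lower in 4 of 4 libraries with overlapping groups (log2 fold change -1.04, SE 0.12, edgeR adjusted p = 5.51e-09). Tac2, which encodes neurokinin B, had means of 244 ± 156 and 448 ± 109 CPM (SD, n = 4), also lower in 4 of 4 libraries (log2 fold change -0.84, SE 0.13, edgeR adjusted p = 1.78e-05), and its sign turned to 0.07 when cells were limited to 5% mitochondrial UMIs.

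The 4 other peptide precursors tested did not pass. Penk, the enkephalin precursor, was at 642 ± 141 and 645 ± 79.9 CPM (SD, n = 4), Pdyn, the dynorphin precursor, at 52.4 ± 12.6 and 49.6 ± 20.5 CPM, Nts, the neurotensin precursor, at 403 ± 100.3 and 316 ± 167 CPM, and Nucb2, the nesfatin precursor, at 74.4 ± 19.7 and 83.6 ± 10.3 CPM. The remaining 10 were below the count filter. When every gene was tested, 8 of the 23 peptide genes were higher and 6 lower (edgeR). Of those below the filter, 4 that passed are given here. Grp, the precursor of gastrin-releasing peptide, gave 43 UMIs against 3 (adjusted p = 1.73e-05), 35 of the 43 in library 1. Nmu, the neuromedin U precursor, gave 26 UMIs against 1 (adjusted p = 0.00194). Vip, the precursor of vasoactive intestinal peptide, gave 16 against 68 (adjusted p = 8.09e-05) with its high side changing between libraries, and Pthlh, the parathyroid hormone-like hormone, 12 against 40 (adjusted p = 0.0243), with library 4 running the other way (6 against 0).

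**Figure D3:**
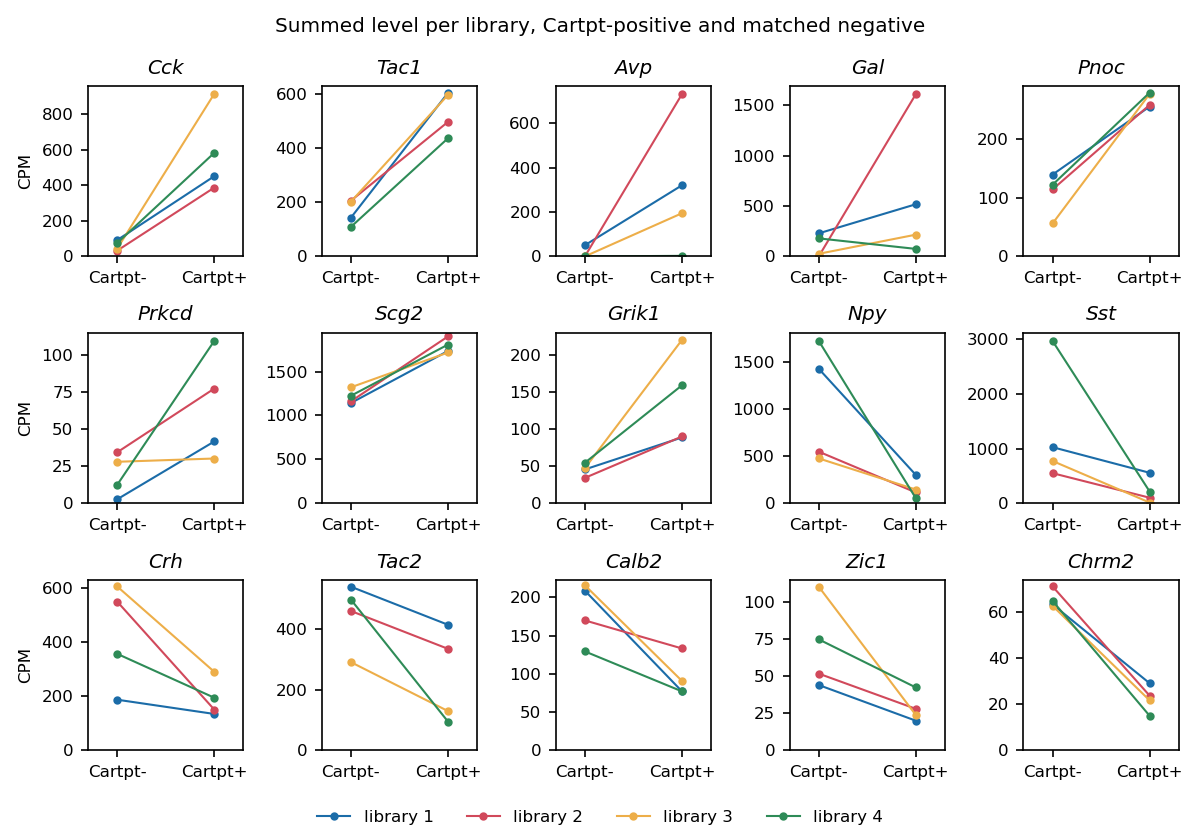
Each panel joins the summed level of 1 gene in the matched negative and the Cartpt-positive cells of a library, in CPM from 0, with 1 line per library. Cck, Tac1, Pnoc, Scg2 and Grik1 are higher in all 4 libraries without overlap, while Npy, Zic1 and Chrm2 are lower in all 4 without overlap.

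Of 18 granin and peptide processing genes, which make up and fill dense-core vesicles, 16 were tested. Of these 5 were higher, none was lower and 11 did not pass (31.2% called, beside 3.11% of all genes tested), with a median log2 fold change of 0.17 beside -0.00 over all genes tested. Scg2 (secretogranin II), a granin of dense-core vesicles, was at 1735, 1900.5, 1717 and 1807 CPM in positive and 1142, 1162, 1321 and 1225 CPM in negative cells. The groups did not overlap, and the difference, though small, was steady: log2 fold change 0.57 (SE 0.05, edgeR adjusted p = 4.64e-11), with 0.38 to 0.71 in single libraries. Resp18, a protein of neuroendocrine secretory granules, had means of 1388 ± 376 and 1010.4 ± 165 CPM (SD, n = 4), with a log2 fold change of 0.45 (SE 0.06, edgeR adjusted p = 5.12e-07). Vgf, a precursor of secreted peptides, differed by 0.71 and Ptprn, a receptor-type phosphatase of the vesicle membrane, by 0.67 on the log2 scale (edgeR adjusted p = 3.47e-04 and 8.13e-05), but without library 1 their adjusted p was 0.232 and 0.0674. Vgf was higher in 3 of 4 libraries and lower in library 3, at 231 against 269.8 CPM. Pcsk1n, the precursor of the convertase inhibitor proSAAS, differed by 0.20 (edgeR adjusted p = 0.0161), and by 0.17 and 0.16 without library 2 or library 4 (adjusted p = 0.0925 and 0.209). The convertase Pcsk2 and the processing enzymes Cpe and Pam did not pass, at log2 differences of 0.02, 0.08 and -0.10.

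Among receptors, few were abundant enough to test. The share called was 33.3% of the neuropeptide and hormone receptors tested and 12.5% of the second list below, beside 3.11% of all genes tested. Of 34 neuropeptide and hormone receptor genes 6 were tested, of which Prlr, the prolactin receptor, was higher (356 ± 113 against 253 ± 69.5 CPM, SD, n = 4, log2 fold change 0.49, edgeR adjusted p = 3.30e-04). Npy2r, a neuropeptide Y receptor, was lower without overlap (65.1 ± 3.43 against 115 ± 40.4 CPM, log2 fold change -0.72, edgeR adjusted p = 0.00405), with an adjusted p of 0.0788 without library 3. Of 8 monoamine, acetylcholine, cannabinoid and adenosine receptors tested, Chrm2, a muscarinic receptor, was lower. It was at 29.0, 23.6, 21.6 and 14.9 CPM in positive and 63.2, 71.0, 62.6 and 64.7 CPM in negative cells, a gap well beyond the spread within either group (log2 fold change -1.42, SE 0.22, edgeR adjusted p = 1.20e-05).

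Of 3 sex steroid genes tested, Greb1, an oestrogen-responsive gene, was higher, at 21.8, 25.8, 77.8 and 52.3 CPM in positive and 7.33, 6.45, 8.63 and 2.49 CPM in negative cells (log2 fold change 2.50, SE 0.35, edgeR adjusted p = 1.96e-06). The share called in this list was 33.3%, beside 3.11% of all genes tested. The oestrogen receptor Esr1 did not pass, at a log2 difference of 0.20. With no count filter, Esr2, an oestrogen receptor, gave 31 UMIs against 1 (edgeR adjusted p = 8.09e-05), and Cyp19a1, the aromatase that makes oestradiol, 41 against 9 (adjusted p = 0.00367). Both were higher in each library. In the same unfiltered test 2 further peptide receptors were higher, Cckar, a cholecystokinin receptor, with 39 UMIs against 11 (adjusted p = 0.0179), and Hcrtr1, an orexin receptor, with 44 against 13 (adjusted p = 0.00782).

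Of 32 GABA and glutamate receptor subunits tested, 1 was higher and 4 lower (15.6% called, beside 3.11% of all genes tested), with a median log2 fold change of -0.07. Grik1, a kainate receptor subunit, was at 89.0, 90.3, 221 and 159 CPM in positive and 45.8, 34.4, 47.5 and 54.8 CPM in negative cells without overlap (log2 fold change 1.48, SE 0.17, edgeR adjusted p = 1.39e-08). Without cluster 4, the Cck and Cbln1 cluster described below, the Grik1 log2 fold change was -0.03 and the call ended (edgeR adjusted p = 0.985), an alternative chosen after seeing the data. The NMDA receptor subunit Grin3a differed by -0.61 (edgeR adjusted p = 0.00231). The AMPA receptor subunit Gria4 differed by -0.45 (edgeR adjusted p = 0.0457), and its call was lost without library 1 or 4 (adjusted p = 0.353 and 0.221).

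The ganglionic eminences are the embryonic sources of forebrain GABAergic neurons. Of 6 caudal ganglionic eminence factors tested, 3 were higher, none was lower and 3 did not pass, with a median log2 fold change of 0.59. The share called was 50% here and 11.1% among the medial factors below, beside 3.11% of all genes tested. Nr2f2 (COUP-TFII) was at 222, 172, 339 and 229 CPM in positive and 134, 118, 125 and 184 CPM in negative cells, higher in each library with overlapping groups (log2 fold change 0.78, SE 0.12, edgeR adjusted p = 1.20e-05). Id2, an inhibitor of helix-loop-helix factors, differed by 0.90 (edgeR adjusted p = 4.51e-04). Prox1, a homeobox factor, differed by 1.12 (adjusted p = 0.0081), and 0.0912 without library 1 and 0.133 without library 3. Prox1 was also seen in 28.4% of oligodendrocyte barcodes. Of 9 medial ganglionic eminence factors tested, 8 did not pass and 1 was higher, the chromatin organiser Satb1, at 33.6, 45.1, 88.6 and 69.7 CPM against 20.2, 17.2, 19.4 and 27.4 CPM without overlap (log2 fold change 1.34, SE 0.25, edgeR adjusted p = 2.26e-04). The defining factor of that lineage, Lhx6, was at 49.9 ± 24.4 and 38.5 ± 6.82 CPM and did not pass.

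Of 10 Zic and other regional factors tested, 4 were lower and none higher (40% called, beside 3.11% of all genes tested), with a median log2 fold change of -0.50. Zic1, a zinc finger factor of the developing forebrain, was at 20.0, 27.9, 23.8 and 42.3 CPM in positive and 44.0, 51.6, 110.1 and 74.7 CPM in negative cells without overlap (log2 fold change -1.27, SE 0.22, edgeR adjusted p = 1.20e-04). The nuclear factor I genes Nfix and Nfib differed by -1.36 and -0.75 (edgeR adjusted p = 0.00409 and 0.0363), and the helix-loop-helix factor Tcf4 by -0.67 (adjusted p = 9.15e-04). Without library 1 the adjusted p was 0.459 for Nfib and 0.258 for Tcf4, and for Nfib it was 0.133 and 0.113 without library 3 or 4. Both were lower in 3 of 4 libraries with overlapping groups and higher in library 2, Tcf4 at 159 against 112 CPM and Nfib at 27.9 against 21.5 CPM. These 3 genes are not restricted to neurons here: a UMI of Nfix, Nfib or Tcf4 was seen in 25.8%, 18.1% and 62.4% of oligodendrocyte barcodes.

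Of 24 lateral ganglionic eminence and striatal genes tested, 2 were higher and 1 lower (12.5% called, beside 3.11% of all genes tested), with a median of -0.07. Wfs1, an endoplasmic reticulum protein, was at 153, 169.8, 190.3 and 413 CPM in positive and 70.5, 81.8, 134 and 229 CPM in negative cells, higher in each library (log2 fold change 0.89, SE 0.12, edgeR adjusted p = 4.68e-07). Adcy5, the striatal adenylyl cyclase, differed by 0.73 and the homeobox gene Six3 by -0.60 (edgeR adjusted p = 0.0153 and 0.0291). Adcy5 was higher and Six3 lower in 4 of 4 libraries. Adcy5 stood at 0.65 and 0.68 without library 3 or 4 and was then not past the threshold (edgeR adjusted p = 0.0812 and 0.12). Six3 stood at -0.47 and -0.59 without library 1 or 4, also short of it (edgeR adjusted p = 0.434 and 0.101).

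Of 19 calcium-binding and regional marker genes tested, 3 were higher and 7 lower (52.6% called, beside 3.11% of all genes tested), with a median of -0.29. Prkcd, a protein kinase C that marks a subset of extended amygdala neurons, was at 41.8, 77.4, 30.3 and 109.5 CPM in positive and 2.75, 34.4, 28.1 and 12.4 CPM in negative cells. It was higher in each library, by only 0.11 on the log2 scale in library 3, with overlapping groups (log2 fold change 1.90, SE 0.30, edgeR adjusted p = 1.95e-05). Calb2 (calretinin) was at 77.2, 133, 90.8 and 77.2 CPM in positive and 209, 170.0, 216 and 129 CPM in negative cells (log2 fold change -1.02, SE 0.14, edgeR adjusted p = 7.42e-07). Crhbp, the binding protein of corticotropin-releasing hormone, and the neurexophilin Nxph1 differed by -1.08 and -1.01 (edgeR adjusted p = 0.0203 and 7.33e-04), Crhbp being higher in library 2 (30.1 against 25.8 CPM). Hpcal4, a neuronal calcium sensor, was higher at 381 ± 52.8 against 255 ± 61.5 CPM (log2 fold change 0.62, edgeR adjusted p = 6.08e-06). The other 5, Hpcal1 (0.34), Lypd1 (-0.64), Lmo3 (-0.46), Nefm (-0.47) and Nefl (-0.32, all log2 fold changes), passed as well. Leaving out 1 library ended the call of Crhbp (adjusted p = 0.259 without library 1 and 0.265 without library 3), Nxph1 (0.234 without library 1), Hpcal1 (0.143 without library 2), Lmo3 (0.379 and 0.129 without library 1 or 4), Nefm (0.137 without library 4) and Nefl (0.0852 and 0.0571 without library 2 or 4).

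Of 35 voltage-gated ion channel genes tested, 1 was higher and 1 lower, the calcium channel subunit Cacna2d3 (0.66) and the sodium channel Scn1a (-0.49), and of 45 adhesion and guidance genes 2 were higher, the semaphorin receptor Nrp2 (0.60) and the synaptic adhesion gene Lrrtm4 (0.67, all log2 fold changes). At 5.71% and 4.44% these shares lie near the background of 3.11%. Each of the 4 passed the threshold no longer when 1 library was left out, while the direction held. Nrp2 then stood at 0.55 to 0.73 (any of the 4 left out, edgeR adjusted p = 0.0766 to 0.136) and Cacna2d3 at 0.50 to 0.62 (library 2, 3 or 4, 0.0661 to 0.267). Lrrtm4 stood at 0.48 to 0.80 (library 1, 3 or 4, edgeR adjusted p = 0.101 to 0.374) and Scn1a at -0.40 and -0.45 (library 3 or 4, 0.0888 and 0.0751). Of 7 immediate early genes tested 1 (14.3%), Fos, was higher, at 107 ± 34.5 against 68.1 ± 31.4 CPM (SD, n = 4, log2 fold change 0.75, edgeR adjusted p = 0.00326), with 0.122 without library 1. Of 4 astrocyte genes tested 1 (25%), Aldoc, was lower (-0.44, edgeR adjusted p = 0.0184), with 0.118 without library 2 and 0.0866 without library 3. Of the oligodendrocyte, vascular, glutamatergic and proliferation markers, 2, 1, 1 and 3 were tested and none passed (edgeR). Camk2a and Dcx had an unadjusted p under 0.05 (0.0255 and 0.0227). With no count filter Slc17a6, the vesicular glutamate transporter VGLUT2, gave 15 UMIs in positive and 91 in negative cells (edgeR adjusted p = 9.78e-11). In that unfiltered test the glutamatergic marker Nrn1 was also lower, with 4 UMIs against 34 (edgeR adjusted p = 6.16e-04), and the endothelial receptor Flt1 was higher, with 34 against 4 (adjusted p = 0.00792), 30 of the 34 in library 1.

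Beyond the lists, the genes of largest difference included Fam159b, at 67.2, 73.1, 38.9 and 94.6 CPM in positive and 14.7, 17.2, 13.0 and 12.4 CPM in negative cells (log2 fold change 2.21, SE 0.25, edgeR adjusted p = 5.51e-09). At no more than 5% mitochondrial UMIs the Fam159b log2 fold change was 1.21 and not past the threshold (edgeR adjusted p = 0.0863). Ppp1r17, a phosphatase inhibitor, differed by 2.17, or 3.06 without library 1, Gldn (gliomedin) by 2.12, and Ezr (ezrin), which links membrane and actin, by 1.74 on the log2 scale (edgeR adjusted p = 1.15e-04, 8.48e-05 and 2.66e-04). The largest falls outside the lists were those of Igfbp4, an insulin-like growth factor binding protein (-1.85), Lypd6, a modulator of nicotinic receptors (-1.81), the POU factor Pou3f2 (-1.78), the calcium-binding gene Cabp1 (-1.52), the uncharacterised 2610017I09Rik (-1.47) and the factor Tox (-1.28, all log2 fold changes). Pou3f2 showed the pattern clearly, at 15.4, 4.30, 13.0 and 17.4 CPM in positive and 42.1, 51.6, 56.1 and 34.9 CPM in negative cells (edgeR adjusted p = 3.97e-05). Some of these genes passed the count filter only through the group where they are high. Fam159b, Greb1, Ppp1r17 and Gldn did so through the positive sums. Lypd6, Pou3f2, Cabp1, 2610017I09Rik and Nfix did so through the negative sums. Their rank among the largest differences holds only for genes that passed the filter.

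The strand used in counting is not given, so genes that share a stretch with a second gene of the tables running the other way may include its reads: Cacna2d3, Chrm2, Ezr, Lmo3, Lrrtm4, Lypd1, Nefl, Nefm, Nfib, Nfix, Nr2f2, Scn1a, Six3, Tox and Zic1. In DESeq2's Wald test 18 of the 58 named genes that edgeR called were still past the threshold: Cck, Greb1, Fam159b, Ppp1r17, Tac1, Grik1, Npy, Pou3f2, Chrm2, Pnoc, Crh, Scg2, Resp18, Nr2f2, Wfs1, Calb2, Hpcal4 and Lypd1.

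Among the other alternatives to the cells and matches used, cells with exactly 1 Cartpt UMI aside, 5 ended more than 10 calls of named genes. With cells limited to 5% mitochondrial UMIs, 29 of the 46 called genes that still had a value no longer passed, Prkcd (1.36), Zic1 (-0.87), Nr2f2 (0.56), Prlr (0.36) and Hpcal4 (0.42) among them. The match on detected genes ended 16 of 55, including Npy, Chrm2 (-0.96, edgeR adjusted p = 0.0525), Npy2r (-0.57), Crhbp (-0.57) and Id2 (0.53). Without the Cck and Cbln1 cluster 22 of 48 did not pass, including Grik1, Nr2f2 (0.22), Id2 (-0.14), Prlr (0.11), Tac2 (-0.38) and Nfix (-1.16). The match on cluster, described below, ended 33 of 50. Without the Prkcd cluster, also chosen after seeing the data, 11 of 56 did not pass, including Fos (0.37) and Ptprn (0.37, all log2 fold changes).

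The positive cells were spread over 16 clusters of GABAergic barcodes that were built without Cartpt, and no cluster was made up of them alone. Clusters are described by their leading genes, with no test. Cluster 4, led by Cck, Cbln1 and Greb1, held 24.0% ± 7.21 of positive and 9.23% ± 3.48 of matched negative cells (SD, n = 4). It had 43.3% of all Cartpt UMIs of the gated cells and 48 of the 106 cells with 10 or more. At 1000 UMIs per cell 30.4% of its cells had a Cartpt UMI. Cluster 11, led by Prkcd and Ezr, was small but the most often positive: 45 of its 62 cells, or 52.3% at 1000 UMIs. It held 9.38% ± 2.79 of positive and 1.69% ± 1.90 of negative cells. Cluster 13, led by the striatal genes Ppp1r1b and Crym, held 8.81% and 4.91%. Cluster 5, of 295 shallow cells with a median of 983 UMIs, held 9.59% and 8.23%, also higher in 4 of 4 libraries.

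Clusters 0, 3, 6, 8, 10 and 14 held a smaller share of the positive than of the negative cells in all 4 libraries. Cluster 8, the largest with 349 cells and with Six3 among its leading genes, held 10.4% and 13.9%. Cluster 3, led by Slc17a6 and Nrn1, held 0.273% and 2.33%. Cluster 6, led by Npy and Sst, held 1.68% of positive and 9.40% of negative cells, and 2.95% of its cells had a Cartpt UMI at 1000 UMIs. Cluster 10, led by Tshz1 and Foxp2, held 0.971% and 5.17%, with 2.10% of its cells positive at 1000 UMIs, and cluster 14, led by Zic1 and Zic4, 3.01% and 5.72%, with 5.19%. Cluster 0, led by Avp and Gal, held 6.93% of positive and 11.2% of negative cells, lower in 4 of 4 libraries, although both genes had more UMIs in the positive group. Of its 148 cells 35 were positive, 9.68% at 1000 UMIs. Cluster 7, of 58 cells, was led by myelin genes such as Mal and Cldn11 and held 2.17% and 2.31%. Of its cells 11 were positive, 14.7% at 1000 UMIs over the 3 libraries with enough cells. Without it 244 genes were called.

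**Figure D4:**
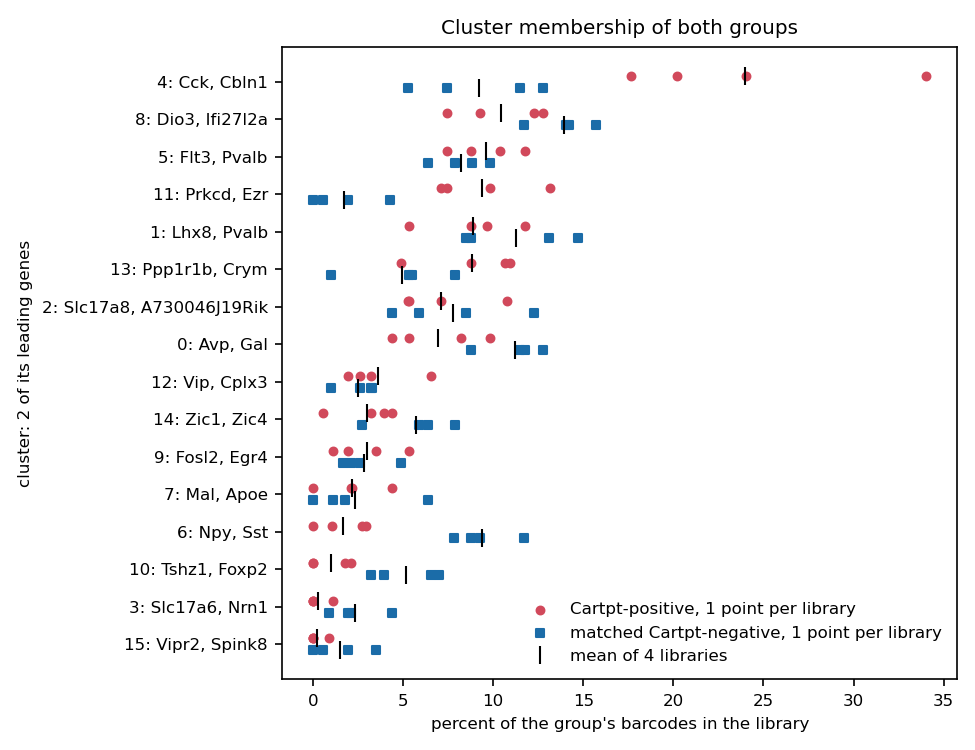
For each of the 16 clusters, named by number and 2 of its leading genes, points give the percent of Cartpt-positive (circles) and of matched Cartpt-negative barcodes (squares) of each library that fell in it, with the mean over libraries as a bar mark. Clusters 4, 5, 11 and 13 hold a larger share of the positive barcodes in all 4 libraries, and clusters 0, 3, 6, 8, 10 and 14 a smaller one.

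To ask which differences were seen between cells of like kind, the negatives were matched on cluster as well as on UMIs, which left 458 cells in each group. Positive cells without a free negative of their cluster and library were left out, above all in cluster 11, where 45 of 62 cells were positive. Depth was matched less closely, with medians of 4445 and 4201 UMIs in library 2 and sums of 384612 and 346826 UMIs in library 3. Then 55 of 6656 genes differed (0.826%), 35 higher and 20 lower, and 44 of them were among the 222, all in the same direction. The peptide genes divided. Cck (log2 fold change 2.81), Tac1 (1.26), Pnoc (1.39), Avp (4.50) and Gal (3.39) were still higher, as were Scg2 (0.55), Resp18 (0.33), Vgf (0.59), Satb1 (1.46), Grik1 (0.65) and Gldn (1.51), and Calb2 (-0.76) and Nfix (-1.49) were still lower. Gal was now higher in 4 of 4 libraries. Nts, not called before, was higher, at 270, 448, 374 and 595 CPM in positive and 200.1, 208, 77.8 and 303 CPM in negative cells (log2 fold change 0.98, SE 0.14, edgeR adjusted p = 7.58e-05).

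Other genes were not past the threshold under this match. Prkcd went to -0.31 (edgeR adjusted p = 0.814) and Ezr to 0.05 (0.991), Npy to -0.86 (0.0715), Sst to -0.56 (0.487), Crh to -0.56 (0.103), Tac2 to -0.38 (0.633), Zic1 to -0.75 (0.168) and Greb1 to 1.05 (0.0664), all log2 fold changes. Prkcd and Ezr lead cluster 11, of whose positive cells only part could be matched. Since clusters were drawn from the same cells and partly from these genes, this match describes within-cluster differences and does not test the clusters.

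Levels also differed with the number of Cartpt UMIs. Mean Cck was 60.4 CPM in matched negative cells, 133 CPM in cells with 1 Cartpt UMI, 402 CPM in those with 2 to 9 and 1280.4 CPM in those with 10 or more. Cells with 1 Cartpt UMI had less Cck than the negative cells in library 2 (23.9 against 32.3 CPM) and more in the other libraries. Pnoc followed with 108, 118, 271 and 407 CPM and Scg2 with 1213, 1227, 1796 and 2226 CPM, so that for both the cells with 1 UMI were near the negative cells. Calb2 went the other way, with 181, 183, 86.0 and 30.7 CPM. Npy did not grade in this way, at 1044, 207, 244 and 32.3 CPM. Nor did the higher peptide genes Avp, at 12.6, 15.5, 692 and 0 CPM, and Gal, at 109, 69.7, 1189 and 171 CPM. These 4 classes differ in depth, cells with 10 or more Cartpt UMIs having a median of 6702 UMIs and those with 1 a median of 3468, so no order is tested.

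**Figure D5:**
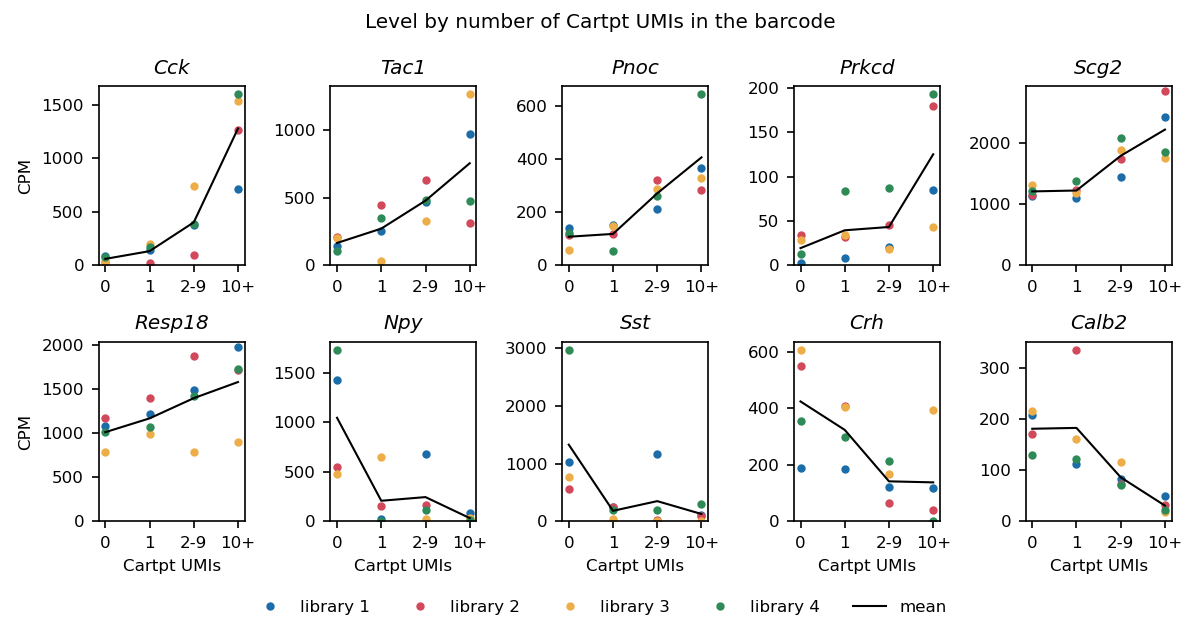
Each panel gives the summed level of 1 gene in CPM from 0, by the number of Cartpt UMIs in the barcode (0 matched, 1, 2 to 9, 10 or more), with a point per library and a line through the means. Mean Cck runs from 60.4 to 1280.4 CPM and mean Calb2 from 181 to 30.7 CPM.

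Tested apart, each against its own matched negatives, the classes gave different counts. The 340 cells with at least 2 Cartpt UMIs differed from theirs in 194 of 6257 genes (edgeR, 3.1%), 161 of them among the 222. The 153 cells with exactly 1 Cartpt UMI differed in 1 of 3062 genes (0.0327%), with 162 at an unadjusted p under 0.05. That gene's value, the Sst log2 fold change, was -2.15 (edgeR adjusted p = 4.16e-05). Pnoc stood at -0.05 and Scg2 at -0.15 there, on the log2 scale, and neither passed. Cck stood at 0.55 and did not pass either (edgeR adjusted p = 0.917). Fewer cells and fewer genes entered this test, and the difference between the classes was not itself tested.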

How the data were processed

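The deposited tables hold raw UMI counts per gene and cell barcode, as whole numbers. Per the submitters' processing notes, bcl2fastq 2.18.0.12, STAR 2.4.2a, Picard 2.2.4 and the builds mm10 and GRCm38 were used. The annotation, the counting strand and the rule that chose barcodes are not given in the sources used here. Gene positions are from GENCODE vM21, in which 18830 of 20136 gene names (93.5%) were found.

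The groups, gene lists and tests were chosen with earlier results of these data known. Positive and negative barcodes were paired 1 to 1 on log total UMIs within library, by optimal assignment. Counts summed per library and group (401703 to 1101685 UMIs per sum) were fitted by edgeR's quasi-likelihood method (edgeR 4.0.16, R 4.3.3), with TMM factors and the default expression filter. That filter asks for enough counts in as many sums as 1 group holds, so a gene could pass through 1 group alone. The library was a block, because each pool of 6 mice gave 1 positive and 1 negative sum. DESeq2 1.42.0 was an alternative. Tested on simulated data with 200 genes changed 2-fold among 6943, the edgeR fit recovered 93% with 6.06% of its calls wrong, and DESeq2 recovered 46.5%. The simulated libraries differed in depth alone, with 1 level of spread for all genes and no UMIs gathered in few cells. They therefore do not give the share of wrong calls in the real data, or why DESeq2 called fewer genes there. Genes named are list members past the threshold, the 10 largest rises and the 10 largest falls with 1 direction in 4 libraries, Pnoc, Oprl1 and Gpr160. Gpr160 was too low to test. A few list members counted among those tested are not reported here by name. Others were named after their values were seen.

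Clusters (Leiden, resolution 1, scanpy 1.11.5) used 2000 variable genes without Cartpt and 30 components. Doublets were not removed. Scrublet marked 62 of 4239 barcodes (1.46%), 8 of them positive and 10 matched negative, and removing them was an alternative. Shares at a fixed depth are the chance that the drawn UMIs hold the gene. Limits from counts of 0 cover counting error only. The interval of Oprl1 uses the edgeR SE with a normal multiplier, so it may be too narrow for 4 libraries. The single-library log2 differences of Oprl1 had an SD of 0.37.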

Additional observations from a re-analysis of the deposited data

Results flagged for a closer look

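In 4 genes 1 library lay far from the other 3 in its log2 difference, positive minus negative. Npy was at -4.95 in library 4 and from -2.24 to -1.69 in the others. Lypd6 was at -3.05 in library 2 and from -1.71 to -1.43 in the others. Scn1a was at -0.16 in library 1, against -0.74 to -0.67, and Fos at 1.3 in library 1, against 0.52 to 0.61. With 71 sets of 4 values searched, chance at 1 in 20 would give 3.55 such cases, and 4 were found.

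Cartpt UMIs were also found outside the gate. At 500 UMIs per cell, 8.99%, 0%, 12.8% and 1.02% of neuronal barcodes without a GABA-gene UMI in libraries 1 to 4 had one, a mean of 5.70% ± 6.20 (SD, n = 4), or 3.34% without library 3. The same share of oligodendrocyte barcodes was 0.467%, 0.738%, 0.32% and 0.783%, a mean of 0.577%, so that the neuronal share was the higher one in 3 of 4 libraries and the lower one in library 2. Of barcodes under the neuronal limit, 1.61%, 2.22%, 0.428% and 2.79% had a Cartpt UMI, a mean of 1.76% and above the oligodendrocyte share in each library. Among GABAergic neurons the mean was 10.01%.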

How the results depend on the processing

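The 222 calls (121 higher, 101 lower) were recomputed under 25 alternatives, and the named genes under all of these that gave them a value. Of the gene values, 1078 kept direction and side of the threshold, 292 kept direction but were no longer past it, and 27 changed sign. Without the replicate block that pairs the sums of a library, 14 genes were called (10 higher, 4 lower), and DESeq2's Wald test called 30 (20 and 10). At most 5% mitochondrial UMIs (320 cells per group) left 60 calls (39 and 21), of which 54 were among the 222, and matching on cluster left 55 (35 and 20). Matching on detected genes gave 80 higher, all negatives unmatched 161 lower, and up to 3 negatives per positive 160 lower. Leaving out 1 replicate gave 125 to 193 calls, 71 to 112 higher and 54 to 100 lower, the fewest without library 1. Among alternatives chosen after seeing the data, removing the Cck and Cbln1 cluster left 96 calls (63 and 33), and positive cells with exactly 1 Cartpt UMI gave 1 (0 higher and 1 lower). The Cartpt share was 10.01% at 500 UMIs, 19.1% at 2000 and 21.8% unthinned.

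Log2 fold changes that changed sign were, under the match on cluster, Prkcd (-0.31), Nefm (0.037) and Nefl (0.15); without the Cck and Cbln1 cluster, Grik1 (-0.030), Id2 (-0.14), Nefm (0.077) and Nefl (0.11); at 5% mitochondrial UMIs, Tac2 (0.071). With exactly 1 Cartpt UMI they were Pnoc (-0.048), Scg2 (-0.15), Nr2f2 (-0.078), Six3 (0.013), Calb2 (0.27), Nefm (0.023), Nefl (0.57) and Lmo3 (0.16). The Oprl1 log2 fold change, never past the threshold, was above 0 with neuronal genes at 1.0% (0.12), unmatched (0.047), with up to 3 negatives (0.066), matched without Cartpt UMIs (0.025), on detected genes (0.39) or on cluster (0.16), without Scrublet doublets (0.0095), uncertain barcodes (0.0017), the Mal cluster (9.0e-06), the Prkcd cluster (0.064) or replicate 2 (0.12), and ran from -0.091 to 0.12 with 1 replicate left out. The cause of these changes was not tested. Genes with few UMIs, and those carried by few cells such as Avp, are limited by the number of cells per sum, 94 to 183.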
